A study of Canis lupus familiaris with 6 samples.

Results

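CMM12 is a canine melanoma cell line, and it was sequenced here as a control and as a pair of podoplanin knockout (KO) lines, KO 1 and KO 2. Each of these 3 states is 1 library of the 6 in the series. The control carries the genotype WT in the labels, and both KO lines are labelled as podoplanin knockouts. The other 3 libraries repeat the same layout in CMM2, a second canine melanoma line, and serve here for the spread between libraries and for 1 comparison of the lines. The genes described were those with at least 10 estimated counts in 1 of the 3 CMM12 libraries, which gave 12013 of the 30951 genes in the count table. Of these, 10633 carried a symbol, out of 18011 in the whole table. The labels do not say how the knockout was made, whether a KO line is a single clone, or whether the libraries came from separate cultures. The p-values therefore reflect differences among these 6 libraries alone. The spread behind them is that between KO 1 and KO 2 within each line. With 1 library per KO line, its technical part cannot be told from differences between the KO lines. With 1 control, both KO lines are set against the same library, and each is given separately.

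Podoplanin is a small, heavily glycosylated membrane protein. Outside the cell it binds the platelet receptor CLEC-2, which can make platelets aggregate, and inside the cell its short tail binds ezrin-family proteins that tie the membrane to the actin cortex. It marks lymphatic endothelium and some invasive tumour cells, and in tumour cells it is studied for migration and matrix remodelling. Melanoma cells come from the neural crest, the lineage of pigment cells.

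The CMM12 libraries held 11287633 estimated counts in the control, 10927552 in KO 1 and 9732927 in KO 2. Levels are given as CPM, which puts counts on a common library size after TMM scaling, and 3 counts correspond to 0.259 CPM in the control, 0.274 CPM in KO 1 and 0.294 CPM in KO 2. Log2 ratios of 1 KO line to the control add 0.5 CPM to both levels and carry no test. Pigment-cell markers were sparse: SOX10, KIT, DCT and TRPM1 of the 14 listed were at 0 in every CMM12 library, and the summed level of the list was 52.1 TPM (a unit corrected for transcript length) in the control, 49.0 TPM in KO 1 and 49.4 TPM in KO 2, most of it from SLC45A2 and MITF. The leukocyte markers PTPRC, CD3E and CD4 were at 0, while the row named CD79A, a B-cell receptor chain, stood at 3818 TPM in the control, 3276 TPM in KO 1 and 3150 TPM in KO 2. Whether counting used strand was not stated in the labels, and without strand the reads of overlapping genes cannot be told apart. Of the 12 listed markers of epithelium, 6 had a row under their symbol. These summed to 15.7 TPM in the control, 1.45 TPM in KO 1 and 2.86 TPM in KO 2. The keratin KRT14 alone made up 13 TPM of the control's sum. Another keratin, KRT18, went the other way, with 0 TPM in the control, 0.17 TPM in KO 1 and 0.98 TPM in KO 2.

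The targeted transcript, PDPN (ENSCAFG00000016363), had 87.8 CPM in the control, 15.2 CPM in KO 1 and 9.98 CPM in KO 2. Both KO libraries therefore lay far below the control, at 17.4% and 11.4% of its level. By edgeR's quasi-likelihood test the log2 fold change of the KO pair was −2.80 (SE 0.34, adjusted p 0.307). By DESeq2 it was −2.80 (SE 0.48, adjusted p 6.6e-06). The edgeR SEs given here were derived from its test statistic. RNA that carries a frame-shifting change can persist, so these levels bear on the RNA and say nothing of the protein.

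Against the control, KO 1 had 503 genes at least 2-fold higher (4.19% of 12013) and 654 at least 2-fold lower (5.44%). On the TPM scale with 0.5 added, the split for KO 1 was 348 higher and 730 lower. KO 2 had 762 genes at least 2-fold higher (6.34%) and 589 lower (4.9%). In both KO lines at once, 256 genes were at least 2-fold higher (2.13%) and 310 lower (2.58%). At 4-fold KO 1 had 64 genes higher (0.533%) and 208 lower (1.73%), and KO 2 had 151 (1.26%) and 168 (1.4%). The genes past 4-fold in both were 26 genes higher (0.216%) and 103 lower (0.857%), so lower genes outnumbered higher ones among the large differences. Because both KO lines are compared with the same control library, the number of shared genes is no separate support for either line.

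After Benjamini-Hochberg adjustment, 1 gene of 12270 passed edgeR's quasi-likelihood test (0.00815%), a lower one, and 734 (5.98%) had an unadjusted p under 0.05. DESeq2, run beside it, called 43 genes of 12420 with an adjusted p (0.346%), 19 higher (0.153%) and 24 lower (0.193%), and 597 of 16605 (3.6%) had an unadjusted p under 0.05. edgeR's was the main test and DESeq2 an alternative to it. The verbs rose and fell are kept for genes that passed DESeq2, and of these IGF2BP1 alone passed edgeR's test too. All 43 lay on the same side of the control in both KO lines on the TPM scale too, and 40 of them were at least 2-fold apart in both there. The tests borrow their spread from the KO pairs of both lines and assume that the lone control varies like them. The called genes SFRP2, ADGRG2, FAM167A, PROM1 and ENSCAFG00000016072 had 0 counts in every CMM2 library, so the CMM2 pair adds nothing to their own spread. COL12A1 was close to that, with 0 counts in the CMM2 control, 2 in KO 1 and 0 in KO 2. For SFRP2, ADGRG2 and ENSCAFG00000016072 both CMM12 KO libraries were at 0 as well. Neither KO pair shows a spread for these genes, so their p-values rest on the spread borrowed from other genes. When DESeq2 was refitted without KO 1 of CMM12, 16 of the 43 were called, and without KO 2 it was 18. The same number without a CMM2 KO library was 30 or 32, and 11 genes were called in all 4 of these fits, among them COL12A1, ABCB1, ENG, TIAM1, IGF2BP1, EPHB2, ALPK2, PDPN, TMEM47 and ENSCAFG00000003126. Each of these fits kept the same control library. Without a KO library of CMM12 that line holds 1 library against 1, and the spread comes from the CMM2 pair alone. A gene can lose its call through this loss of spread, so a lost call does not by itself show dependence on 1 KO line.

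**Figure D1:**
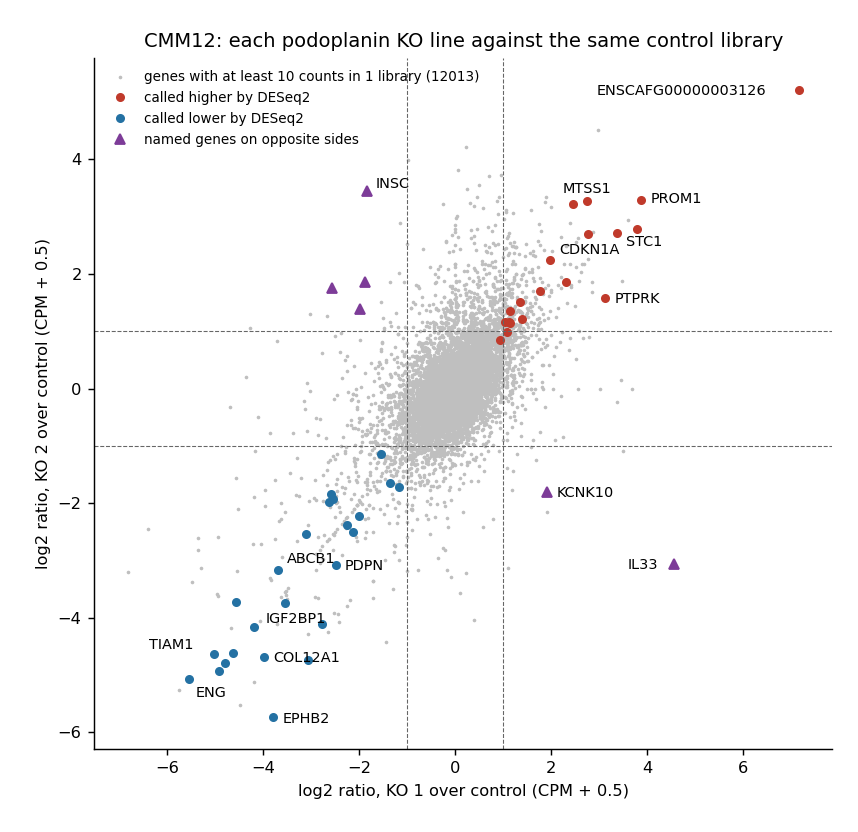
Log2 ratio of KO 1 to the control (x axis) against that of KO 2 to the same control (y axis) for 12013 genes, with 0.5 CPM added. Dashed lines mark 2-fold, coloured points are the DESeq2 calls (19 higher in red, 24 lower in blue) and triangles the 6 named genes on opposite sides. IL33 lies far to the lower right, high in KO 1 and nearly absent in KO 2.

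The RNA-binding protein gene IGF2BP1, which is active in the embryo and in many tumours and stabilises growth-related messenger RNAs, was the gene called by edgeR. It had 118 counts in the control and 1 count in each KO library, or 10.2 CPM against 0.0912 and 0.0979 CPM. The control exceeded KO 1 by a factor of 112 (95% exact counting interval 19.7 to 4447) and KO 2 by 104 (18.3 to 4144), intervals that cover counting error only. Its change was −6.59 on the log2 scale (SE 0.46), at an adjusted p of 0.0415 by edgeR's quasi-likelihood test. That p was 0.0546 without CMM2 KO 1, 0.127 without CMM2 KO 2 and 0.241 with only the CMM12 libraries, and by DESeq2 it was 4.3e-06. Its relative IGF2BP2 had 63.4 CPM in the control, 49.1 in KO 1 and 42.3 in KO 2, and was not called.

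The lower calls are given by what their products are known to do, which is background and not a tested grouping, and the first are proteins of the cell surface and its junctions. ENG, the TGF-beta co-receptor endoglin, had 264 counts in the control, 0 in KO 1 and 2 in KO 2. That is at least 83.3-fold lower in KO 1, with 3 counts as the floor per library, and a ratio of 116 to KO 2 (counting interval 31.9 to 966), with a DESeq2 adjusted p of 6.9e-09. EPHB2, a receptor tyrosine kinase for membrane-bound ephrins, stood at 94.3 CPM in the control, 6.38 CPM in KO 1 and 1.27 CPM in KO 2, so the KO libraries differed from each other as well as from the control (DESeq2 log2 −4.62, SE 0.78). ITGB4, the integrin chain of hemidesmosomes, had 205 counts in the control, 3 in KO 1 and 9 in KO 2. It was a weak call (adjusted p 0.0477) that held without CMM2 KO 2 (0.0498) but not in the other 3 fits that left out a KO library. ADGRG2, an adhesion G-protein-coupled receptor, had 137 counts in the control and 0 in both KO libraries, at least 43.2-fold and 40.3-fold lower, and was not called without KO 1 (0.360) or KO 2 (0.197). PKP2, a desmosomal plaque protein, went from 21.7 CPM to 2.74 and 0.783 CPM (DESeq2 adjusted p 0.0401) and was not called in any of the 4 fits without a KO library.

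Lower calls whose products act inside the cell were TIAM1, ID3, ALPK2 and DOK6. TIAM1, an exchange factor that activates the GTPase Rac, had 252 counts in the control, 2 in KO 1 and 4 in KO 2, a ratio of 119 (32.7 to 990) and 55.5 (21.4 to 205). The DESeq2 adjusted p was 4.0e-07. ID3, an inhibitor of basic helix-loop-helix factors and a usual target of BMP signals, had 122 CPM in the control, 20.6 CPM in KO 1 and 31.8 CPM in KO 2, and fell by 2.22 on the log2 scale (DESeq2 SE 0.50, adjusted p 0.00584, 0.288 without KO 1). ALPK2, an alpha-kinase, stood at 44.4, 8.94 and 8.12 CPM in the control, KO 1 and KO 2. DOK6, a docking protein of the receptor RET, stood at 29.0, 6.84 and 5.77 CPM and was not called in any of the 4 fits without a KO library. The efflux pump gene ABCB1, known for drug resistance, had 78.0 CPM in the control against 5.56 CPM in KO 1 and 8.22 CPM in KO 2, a log2 fold change of −3.50 (DESeq2 SE 0.46, adjusted p 9.3e-11).

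Among the lower calls with secreted products were COL12A1, FBN1, SFRP2 and ADAMTS14. COL12A1, a collagen that sits on the surface of fibrils, had 1293 CPM in the control, 81.6 CPM in KO 1 and 49.8 CPM in KO 2, which leaves 6.31% and 3.85% of the control level (DESeq2 log2 −4.30, SE 0.37, adjusted p 5.1e-27, and 0.0857 by edgeR). FBN1, the microfibril protein fibrillin, had 669 CPM in the control, 230 CPM in KO 1 and 304 CPM in KO 2, a smaller change of −1.32 (SE 0.34). Leaving out KO 1 took FBN1 to an adjusted p of 0.488 by DESeq2. SFRP2, a secreted binder of Wnt proteins, had 154 counts in the control and 0 in both KO libraries, at least 48.6-fold and 45.3-fold lower, and was not called without KO 1 (0.277) or KO 2 (0.137). ADAMTS14, which trims procollagen, stood at 25.6 CPM in the control, 5.47 CPM in KO 1 and 4.11 CPM in KO 2 and was not called in any of the 4 fits without a KO library.

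INSIG1 and SCD were the lower calls from the list of cholesterol and fatty acid synthesis. INSIG1, a sterol sensor that holds back cholesterol synthesis, had 142 CPM in the control, 23.4 CPM in KO 1 and 39.3 CPM in KO 2 (DESeq2 log2 −2.18, SE 0.53, adjusted p 0.0167, 0.266 without KO 1). SCD, the desaturase that makes oleate, had 220, 98 and 66.9 CPM (log2 −1.42, SE 0.31, adjusted p 0.00438, 0.176 without KO 2). STRA6, the receptor for retinol carried by its binding protein, had 102, 16.1 and 25.5 CPM and a call close to the threshold (adjusted p 0.0491, 0.597 without KO 1). The membrane protein gene TMEM47 had 46.6 CPM in the control, 5.11 CPM in KO 1 and 1.27 CPM in KO 2, and was called in every fit without a KO library. FAM81A (178, 68.8 and 56.5 CPM in the control, KO 1 and KO 2) and FAM167A (23.2, 1.55 and 1.27 CPM) were the other lower calls reported with a symbol. Without KO 2, FAM81A had an adjusted p of 0.157, and FAM167A was called in 1 of the 4 fits without a KO library, the one without CMM2 KO 2 (0.0493). A further lower call, ENSCAFG00000016072, carries no symbol and had 170 counts in the control and 0 in both KO libraries, and was not called without KO 1 (0.219) or KO 2 (0.0946).

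**Figure D2:**
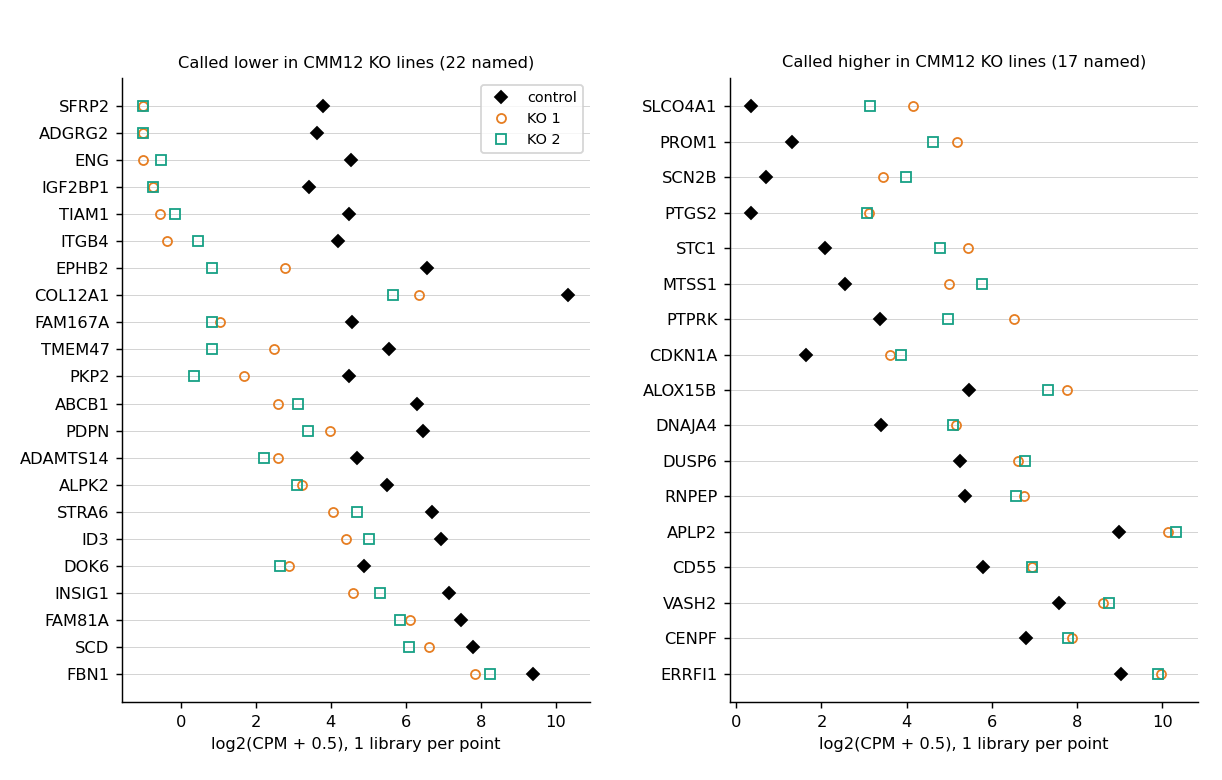
Level of the named genes that DESeq2 called, as log2(CPM + 0.5) with 1 point per library, lower genes on the left and 17 higher genes on the right. The control (diamond) lies outside both KO libraries for every gene drawn, and the distance between KO 1 (circle) and KO 2 (square) is widest for EPHB2, TMEM47 and PTPRK.

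Higher calls included CDKN1A, PTGS2, ALOX15B and DNAJA4. CDKN1A, the cell-cycle inhibitor p21 and a classic target of p53, had 2.59 CPM in the control, 11.7 CPM in KO 1 and 14.2 CPM in KO 2, 4.51-fold and 5.48-fold above it (DESeq2 log2 2.32, SE 0.45, adjusted p 2.7e-04, 0.0535 without KO 2). Of the 21 p53 targets measured, CDKN1A was the 1 at least 2-fold higher in both KO lines (4.76%, against 2.13% of all genes). The medians of the list were 0.12 in KO 1 and 0.00 in KO 2, against 0.01 and 0.01 over all 12013 genes. PTGS2, the inducible cyclooxygenase of prostaglandin synthesis, had 9 counts in the control, 90 in KO 1 and 80 in KO 2 (adjusted p 0.0167 by DESeq2, 0.279 without KO 1 and 0.135 without KO 2). ALOX15B, a lipoxygenase that also acts on arachidonate, had 43.6, 218 and 159 CPM (adjusted p 0.0304, 0.355 without KO 1). DNAJA4, a co-chaperone of HSP70, had 10, 35.2 and 33.8 CPM, so the KO libraries lay close together and apart from the control, though it was not called without KO 1 (0.288) or KO 2 (0.137).

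PROM1, PTPRK, MTSS1, STC1, SLCO4A1 and SCN2B were also called higher. PROM1, the membrane protein CD133 of stem-like cells, had 1.98 CPM in the control, 36.0 CPM in KO 1 and 23.9 CPM in KO 2, 18.2-fold and 12-fold above the control (DESeq2 log2 3.92, SE 0.76, adjusted p 2.3e-04). It was not called without KO 1 or KO 2, in fits that held no KO pair with counts of PROM1. PTPRK, a receptor phosphatase that dampens growth-factor receptors, had 9.92, 90.6 and 30.7 CPM, so KO 1 carried most of the change, and it was not called without KO 1 (0.50). MTSS1, which bends membranes and binds actin, had 5.35, 31.6 and 54.4 CPM, with KO 2 the higher, and was not called without KO 1 (0.125) or KO 2 (0.821). STC1, a secreted glycoprotein hormone, had 3.71, 43.2 and 27.0 CPM and was not called without KO 1 (0.518). SLCO4A1, an organic anion transporter, had 9 counts in the control, 189 in KO 1 and 85 in KO 2. SCN2B, a beta subunit of voltage-gated sodium channels, had 1.12, 10.4 and 15.3 CPM and was not called without KO 2 (0.142).

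The remaining higher calls with a symbol had smaller changes than those of PROM1. DUSP6, a phosphatase that switches off ERK, had 37.6 CPM in the control, 96.9 CPM in KO 1 and 109 CPM in KO 2 (DESeq2 log2 1.45, SE 0.32, adjusted p 0.0045). ERRFI1, a feedback inhibitor of the EGF receptor, had 525, 999 and 948 CPM (log2 0.89, SE 0.23). APLP2, a relative of the amyloid precursor protein, had 505, 1122 and 1287 CPM and was not called without KO 2 (0.112). RNPEP, CD55, VASH2 and CENPF rose by 1.04 to 1.32 on the log2 scale. DUSP6, ERRFI1, RNPEP, CD55, VASH2, CENPF and SLCO4A1 were called with all libraries and in none of the 4 fits without a KO library. The largest change among the higher calls was that of ENSCAFG00000003126, a gene without a symbol (DESeq2 log2 9.24). It had 1 count in the control, 909 in KO 1 and 218 in KO 2, and in CMM2 0 in the control, 776 in KO 1 and 874 in KO 2. ENSCAFG00000032173, also without a symbol, had 1254, 2602 and 2482 counts in the CMM12 control, KO 1 and KO 2, and was called in none of these 4 fits.

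Some of the largest differences did not pass either test. TNN, the matrix glycoprotein tenascin N, had 305 counts in the control, 0 in KO 1 and 2 in KO 2, with an edgeR adjusted p of 0.410. NCAM1, the neural cell adhesion molecule, had 313 counts in the control, 8 in KO 1 and 1 in KO 2. NPNT, the integrin ligand nephronectin, had 49.4 CPM in the control, 0.274 CPM in KO 1 and 1.86 CPM in KO 2. For these 3 genes every CMM2 library had 0 counts. COL1A1, a chain of type I collagen, had 679 CPM in the control, 5.56 CPM in KO 1 and 73.4 CPM in KO 2, a 122-fold and a 9.26-fold difference whose sizes are far apart. On the higher side, MMP1, the interstitial collagenase, had 135 CPM in the control, 717 CPM in KO 1 and 1008 CPM in KO 2, with an edgeR p of 0.031 before and 0.804 after adjustment. CCL24, a chemokine for eosinophils, had 1 count in the control, 45 in KO 1 and 131 in KO 2.

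Collagen genes were lower as a list in both KO lines. Of 24 measured collagens and collagen-processing genes, 8 were at least 2-fold lower in both KO lines (33.3%, against 2.58% of all genes) and 0 higher. Their median log2 ratio was −0.83 in KO 1 and −0.53 in KO 2. Relative to the medians of their chromosomes the list stood at −0.68 and −0.43, over 22 members with a chromosome. This list and the others were chosen with earlier results of these data known, and both KO lines share the control. The shares of lists are therefore description only. COL12A1 was the 1 member called. COL5A2, a chain of the minor fibrillar collagen V, had 3473 CPM in the control, 1509 CPM in KO 1 and 1714 CPM in KO 2, and LOXL2, which cross-links collagen, had 248, 75.1 and 117 CPM. COL6A3, a chain of the beaded filaments, had 340 CPM in the control against 18.3 CPM in KO 1 and 91.5 CPM in KO 2, while its partner chain COL6A1 had 1720, 1674 and 1733 CPM and so stood at about the same level in all 3 libraries. Among fibroblast markers, which overlap with this list, the summed level was 2300 TPM in the control, 951 TPM in KO 1 and 1675 TPM in KO 2, most of it from COL1A2, COL3A1 and COL1A1. Of the other markers on it, THY1 had 115 TPM in the control, 131 TPM in KO 1 and 313 TPM in KO 2, and PDGFRA had 10.2, 11.5 and 20.8 TPM. LUM went the other way, with 10.7 TPM in the control, 0.27 TPM in KO 1 and 0 in KO 2. The part of the cell makeup in the collagen values was not tested. In bulk RNA, fewer cells that express a gene and less of its RNA per cell cannot be told apart.

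The TGF-beta and BMP pathway, whose ligands signal through receptor kinases to SMAD proteins, had a median of −0.55 in KO 1 and −0.11 in KO 2 over 34 measured members. In both KO lines 6 members were at least 2-fold lower (17.6%, against 2.58% of all genes) and 0 higher (2.13% of all genes). Among ligands, TGFB3 had 87.8 CPM in the control, 7.11 CPM in KO 1 and 19.3 CPM in KO 2, and TGFB2 had 70.2, 30.1 and 13.4 CPM. Neither ligand was called. The receptor kinase gene TGFBR1 had 59.7 CPM in the control, 50.9 CPM in KO 1 and 58.8 CPM in KO 2. ENG and ID3 were the called members, and ID1, a close relative of ID3, had 182 CPM in the control, 106 CPM in KO 1 and 127 CPM in KO 2. FST, a secreted antagonist of activin, went the other way, with 3.80 CPM in the control, 29.0 CPM in KO 1 and 7.54 CPM in KO 2, and was not called.

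Over 35 measured members of the Wnt pathway the median was −0.81 in KO 1 and 0.00 in KO 2. At least 2-fold lower were 13 members in KO 1 and 5 in KO 2, against 5.44% and 4.9% of all genes. Lower than the control in both were 15 members, against 34.5% of all genes. Relative to the medians of their chromosomes the list stood at −0.61 and −0.13, and the difference between the KO lines was not tested. SFRP2 was the called member. DKK1, a secreted inhibitor of Wnt co-receptors, had 23.7 CPM in the control, 0.547 CPM in KO 1 and 2.15 CPM in KO 2. WNT5B had 219, 34.2 and 81.0 CPM. ROR2, a receptor of WNT5A, had 45.2 CPM in the control and 51.6 CPM in KO 2 but 14.7 CPM in KO 1, and WNT7B had 3.37, 6.75 and 38.8 CPM, so KO 2 alone was far from the control there.

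Genes of cholesterol and fatty acid synthesis had a median of −0.51 in KO 1 and −0.39 in KO 2, and 20 of the 24 measured were lower than the control in both and 2 higher, against 34.5% and 35.8% of all genes. INSIG1 and SCD passed DESeq2. ELOVL6, a fatty acid elongase, had 65.2 CPM in the control, 26.8 CPM in KO 1 and 29.8 CPM in KO 2 and was not called (DESeq2 adjusted p 0.0603). FADS1, a desaturase of polyunsaturated fatty acids, was the main exception, with 18.3 CPM in the control, 28.5 CPM in KO 1 and 59.6 CPM in KO 2.

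Feedback and output genes of ERK signalling were higher as a list. Their median was 0.77 in KO 1 and 0.37 in KO 2 over 17 measured members, of which 3 were at least 2-fold higher in both KO lines (17.6%, against 2.13% of all genes) and 0 lower. DUSP6 was called. DUSP5, a nuclear ERK phosphatase, had 12.9 CPM in the control, 33.7 CPM in KO 1 and 28.1 CPM in KO 2, and SPRY4, an inhibitor upstream of ERK, had 5.44, 15.8 and 25.1 CPM. SPRED1, another inhibitor of the pathway, had 55.2 CPM in the control, 24.0 CPM in KO 1 and 36.0 CPM in KO 2, so not every brake of the pathway was higher.

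Immediate early transcription factors had medians of 0.63 in KO 1 and 0.96 in KO 2 over 21 members. Relative to the medians of their chromosomes the list stood at 0.47 and 0.84. In both KO lines 4 members were at least 2-fold higher (19.0%, against 2.13% of all genes) and 0 lower (2.58% of all genes). EGR1 had 7.68 CPM in the control, 17.2 CPM in KO 1 and 53.3 CPM in KO 2. FOS had 7 counts in the control, 38 in KO 1 and 55 in KO 2, and KLF4, a factor of epithelial and stem cells, had 1.90, 6.75 and 9.30 CPM. No member of this list was called by either test. On the TPM scale with 0.5 added, no list kept a median above 0.5 in both KO lines. The interferon response list had medians of 0.43 and 0.58 over 25 members, with 4 at least 2-fold higher in both KO lines (16%, against 2.13% of all genes) and 0 lower. OAS2, which makes the activator of RNase L, had 32.7, 66.8 and 96.4 CPM and was not called.

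The hypoxia and glycolysis list had a median of 0.35 in both KO lines over 25 members, and STC1 was its called member. SLC16A3, a lactate exporter, had 33.7 CPM in the control, 94.4 CPM in KO 1 and 120 CPM in KO 2 (DESeq2 adjusted p 0.0591). The oncofetal list around IGF2BP1 had medians of −0.42 and −0.58 over 8 members, and HMGA1, a chromatin protein of embryonic and tumour cells, went against it with 575, 1309 and 720 CPM. The unfolded protein and stress list held members in both directions: DDIT3, the stress factor CHOP, had 6.90, 25.4 and 26.4 CPM, and ASNS, asparagine synthetase, had 30.4, 12.6 and 14.0 CPM. Neither was called.

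Surface, protease and signalling lists held members on both sides. Among 21 proteases and inhibitors 4 were at least 2-fold higher in both KO lines (19.0%, against 2.13% of all genes) and 2 lower (9.52%, against 2.58%). The medians were −0.50 and −0.20. TIMP1, an inhibitor of matrix metalloproteinases, had 466 CPM in the control, 1118 CPM in KO 1 and 1856 CPM in KO 2, while ADAMTS1, a secreted protease, had 252, 97 and 49 CPM. Neither was called. Of 25 cadherins and cell-cell adhesion genes 3 were at least 2-fold lower in both KO lines (12%, against 2.58% of all genes) and 0 higher. The lower genes included CDH11, a cadherin of mesenchymal cells, with 48.7, 13.1 and 5.38 CPM. In the Notch and Hedgehog list (medians −0.41 and −0.26 over 18 members) the ligand JAG1 had 574, 52.8 and 206 CPM, and its relative JAG2 ran the other way with 10.2, 30.8 and 29.5 CPM. ADCY3, an enzyme that makes cyclic AMP, had 98, 2.01 and 10.7 CPM, in a list with medians of −0.35 and −0.32 over 23 members. Actomyosin and YAP/SRF targets had medians of 0.24 in KO 1 and −0.30 in KO 2, and ANKRD1, a target of YAP, had 8.89, 0.456 and 0.979 CPM. None of the last 5 genes was called.

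Lists of basic cell functions stayed nearer to the control. DNA replication genes had medians of 0.25 and 0.18 over 28 members, with 0 at least 2-fold away in both KO lines. Mitotic genes had 0.25 and 0.07 over 24 members, and CENPF was the called one. Nuclear genes of oxidative phosphorylation had −0.00 and −0.27 over 24 members, and the 13 housekeeping reference genes had 0.04 and −0.22, with 0 at least 2-fold away in either KO line. Integrins and focal adhesion genes had 0.18 and 0.24 over 26 members, of which NEDD9, a docking protein of focal adhesions, had 17.7 CPM in the control, 1 CPM in KO 1 and 1.86 CPM in KO 2 and was not called.

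**Figure D3:**
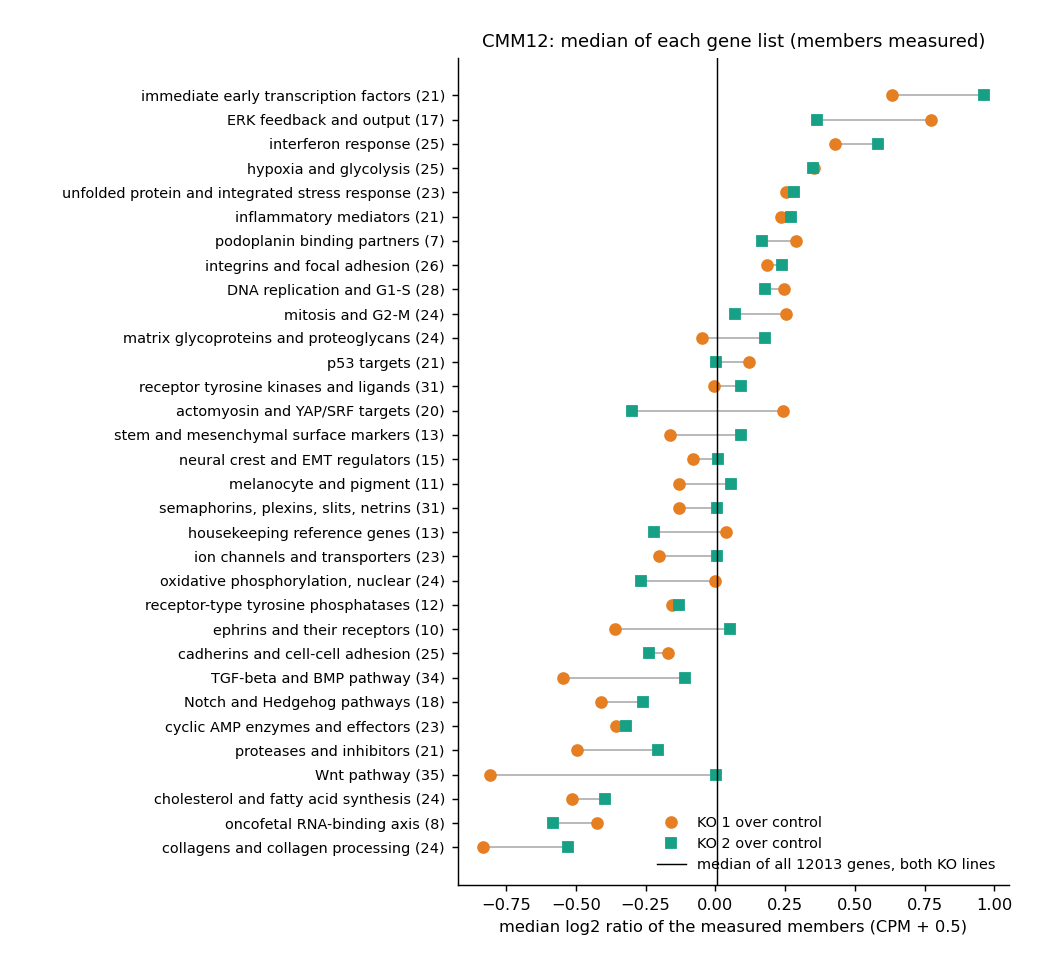
Median log2 ratio to the control of the measured members of each gene list (number in brackets), for KO 1 (circles) and KO 2 (squares), with the line at the median of all 12013 genes. The collagen list lies at −0.83 and −0.53, the immediate early list at 0.63 and 0.96, and among the lists drawn the Wnt list has the widest gap between the KO lines.

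The binding partners of podoplanin showed no large difference. CD44, the hyaluronan receptor that binds podoplanin's ectodomain, had 365 CPM in the control, 579 CPM in KO 1 and 593 CPM in KO 2 (log2 0.68, SE 0.32, edgeR adjusted p 0.843). The ezrin-family genes stood close to the control: EZR had 1027, 1099 and 1115 CPM, MSN 359, 447 and 395 CPM, and RDX 288, 314 and 294 CPM. LGALS8, a galectin that binds podoplanin's sugars, had 54.9, 81.9 and 70.8 CPM. CD9, a tetraspanin partner, had 267, 234 and 420 CPM, on either side of the control. None of the 7 measured partners was 2-fold away in either KO line or passed a test.

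The KO lines also differed from each other. KO 2 was at least 2-fold above KO 1 for 669 genes (5.57%) and below it for 354 (2.95%). A small set lay at least 2-fold from the control on opposite sides, 11 genes higher in KO 1 (0.0916%) and 20 higher in KO 2 (0.166%). IL33, an alarmin cytokine held in the nucleus, had 52 counts in the control, 1288 in KO 1 and 1 in KO 2, and every CMM2 library had 0. KCNK10, a background potassium channel, had 6.04 CPM in the control, 24.3 CPM in KO 1 and 1.37 CPM in KO 2. INSC, which orients the mitotic spindle, had 2.59, 0.365 and 33.1 CPM, and FXYD6, a regulator of the sodium pump, had 3.54, 0.182 and 13.2 CPM, so these ran the opposite way. ACTA2, smooth muscle actin, had 9.15 CPM in the control, 108 CPM in KO 1 and 4.01 CPM in KO 2. The muscle markers summed to 20 TPM in the control, 123 TPM in KO 1 and 16.2 TPM in KO 2, nearly all of it ACTA2 in KO 1, with MYOD1 and MYF5 at 0.

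Some matrix genes lay on opposite sides of the control in the KO lines, and those given here were chosen after their values were seen. In the list of 24 measured matrix glycoproteins and proteoglycans, 4 were at least 2-fold higher in both KO lines (16.7%, against 2.13% of all genes). In both KO lines 2 were lower (8.33%, against 2.58%). FBLN2, a fibulin, had 44.3 CPM in the control, 1.82 CPM in KO 1 and 92.6 CPM in KO 2. TGFBI, a matrix protein induced by TGF-beta, had 26.3, 2.83 and 66.0 CPM, and AEBP1, a collagen-binding protein, had 52.6, 23.3 and 215 CPM. In KO 1 alone THBS3, a thrombospondin, stood at 2.01 CPM, against 50.7 CPM in the control and 58.7 CPM in KO 2. CRABP2, a carrier of retinoic acid, followed the same pattern with 56.7, 6.57 and 55.1 CPM. KO 2 alone was low for the leptin receptor gene LEPR, with 133 CPM in the control, 104 CPM in KO 1 and 16.6 CPM in KO 2, and high for the synuclein gene SNCG, with 0.863, 1.09 and 25 CPM. With 1 library per KO line these differences have no replicate check.

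Whole blocks of neighbouring genes lay on one side of the control together. Genes were grouped by the chromosome they share in a RefSeq table of the assembly UU_Cfam_GSD_1.0, and 8747 genes at a mean of at least 5 CPM fell into 39 groups, each named here by its gene with the highest TPM. The group of COL5A2 (78 genes) had a median log2 ratio of −0.84 in KO 1 and −0.29 in KO 2, and 96.2% of its genes were lower in KO 1. Its medians in the CMM2 KO lines were −0.04 and 0.06. The group of HMGN1 and COL6A1 (73 genes) showed the reverse order, with 0.07 in KO 1 and −0.57 in KO 2, where 93.2% of the genes were lower. The groups of RPS15A and ACTB (412 genes) and of FTL (480 genes) were lower in both KO lines, at −0.44 and −0.43 and at −0.34 and −0.31. The group of RPS24 (242 genes) stood at 0.45 in KO 1 and 0.02 in KO 2. Over the 39 groups the medians had an SD of 0.233 in KO 1 and 0.208 in KO 2, against 0.0896 and 0.188 in the CMM2 KO lines. Medians beyond 0.3 in either direction numbered 5 in KO 1 and 7 in KO 2, against 0 and 2 in CMM2. The labels give no DNA copy number, and its part in these shifts was not tested.

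**Figure D4:**
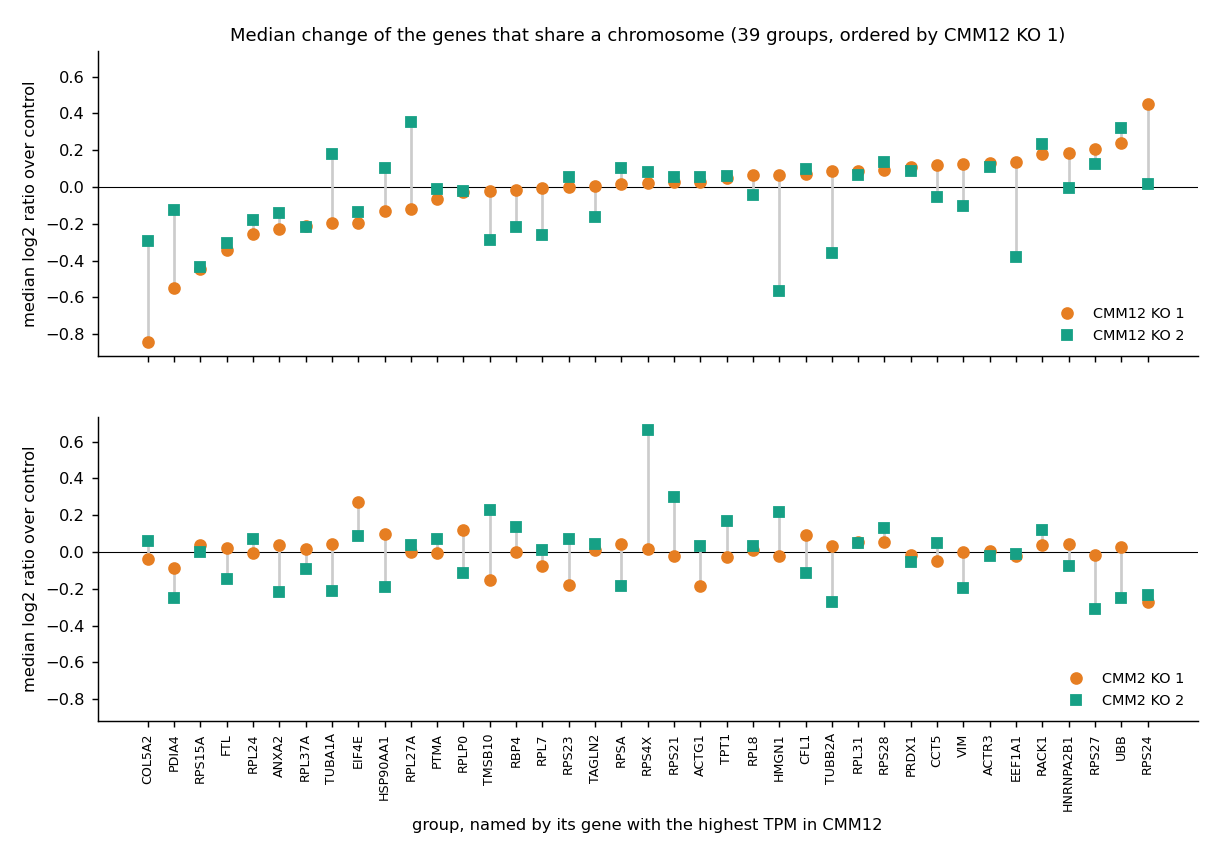
Median log2 ratio to the control of the genes that share a chromosome, 39 groups ordered by CMM12 KO 1, for the CMM12 KO lines (upper panel) and the CMM2 KO lines (lower panel). In CMM12 the COL5A2 group lies at −0.84 in KO 1 and the HMGN1 group at −0.57 in KO 2, the CMM2 KO 1 medians lie between −0.27 and 0.27, and those of CMM2 KO 2 between −0.31 and 0.66.

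Shorter blocks stood out too. Among windows of 25 neighbouring genes, the lowest in KO 1 ran from LNPK to COL5A2, with a median of −0.88 and 24 of 25 genes lower. The lowest in KO 2 ran from SNX16 to MTDH, at −0.96, where KO 1 was at −0.14. The highest in KO 1 ran from ASPM to CENPF, with a median of 0.82, 0.78 in KO 2, and 25 of 25 genes higher. Among the calls, 4 higher genes had neighbours of this kind. For CENPF, a kinetochore protein, the nearest genes (12 on each side) had medians of 0.76 in KO 1 and 0.77 in KO 2, and relative to them CENPF was higher by 0.31 and 0.22. VASH2, CD55 and RNPEP lay in like neighbourhoods, with values relative to their neighbours of 0.27 and 0.33, 0.33 and 0.35, and 0.63 and 0.42. ASPM, a mitotic spindle gene that was not called, was at 0.00 and 0.15 relative to its own neighbours. COL5A2 was at −1.20 and −1.02 as measured and at −0.39 and −0.74 relative to its neighbours, and COL3A1, of the same chromosome, was at −2.05 and −1.61 relative to its own.

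For other calls with large changes the differences relative to neighbours stayed large. PDPN stood at −2.74 and −3.01, ENG at −5.52 and −5.10, IGF2BP1 at −4.39 and −4.34, PROM1 at 3.84 and 3.08 and CDKN1A at 1.98 and 2.64. Calls with smaller changes included APLP2, at 1.15 and 1.35 as measured and 0.84 and 0.97 relative to its neighbours. ERRFI1 was at 0.93 and 0.85 as measured and at 0.74 and 0.70 relative to its own. Of the 40 called genes with a place in the table, 40 kept their direction relative to their neighbours. At least 2-fold in both KO lines were 38 of them as measured and 34 relative to their neighbours. Over all genes with a place, 479 were at least 2-fold away in the same direction in both KO lines, and 380 still were relative to their neighbours. The 10 measured genes encoded by mitochondrial DNA had a median of 0.54 in KO 1, with 10 of 10 higher, and 0.08 in KO 2.

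The last comparison asked whether a change in CMM12 differed from that in CMM2, by testing the difference of the KO effects. By edgeR's quasi-likelihood test 0 of 12270 genes passed, with a smallest adjusted p of 0.451, and 471 (3.84%) had an unadjusted p under 0.05. DESeq2 called 23 of 14029 (0.164%), 2 with a higher change in CMM12 (0.0143%) and 21 with a lower one (0.15%), and 456 (2.75%) had an unadjusted p under 0.05. Several of these ran in opposite directions. ID3, lower in both CMM12 KO lines, had 8.02 CPM in the CMM2 control, 21.8 CPM in KO 1 and 40.1 CPM in KO 2 of that line. The difference of the effects was −4.17 on the log2 scale (DESeq2 adjusted p 4.5e-05). CREB3L1, a membrane-bound factor that promotes collagen transcription, had 143, 51.9 and 47.7 CPM in CMM12 and 20.6, 51.7 and 113 CPM in CMM2. FBN1 had 488, 870 and 1339 CPM in CMM2, and COL5A2 had 1761, 2463 and 3794 CPM, both above their control where CMM12 lay below it.

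In other genes the CMM2 libraries lay nearer to their control or on both sides of it. ENG had 85 CPM in the CMM2 control, 74.3 CPM in KO 1 and 127 CPM in KO 2, against its near absence in the CMM12 KO lines, a difference of −8.15 (DESeq2 adjusted p 2.4e-07). TIAM1 differed by −7.13 and IGF2BP1 by −6.02, the latter with 59.1, 37.4 and 34.0 CPM in CMM2. The IGF2BP1 difference was not called without CMM12 KO 1 (0.137) or CMM12 KO 2 (0.0662). DNAJA4 had the higher change in CMM12, with a difference of 2.19 and 75.5, 54.2 and 60.1 CPM in CMM2. The other gene with a higher change, TNS3, a focal adhesion protein, had 88 counts in the CMM12 control, 77 in KO 1 and 168 in KO 2, and in CMM2 65 in the control and 0 in both KO libraries, so its difference came with the CMM2 values. PTK7, RPS6KA2, OLFML2B, PTGFRN and PMEPA1, the remaining 5 calls, were chosen after their values were seen, as was TNS3. Of these PMEPA1, a gene induced by TGF-beta, had 47.9, 8.94 and 14.2 CPM in CMM12 and 3, 15 and 71 counts in CMM2. For PDPN itself the difference of the effects was −0.94 on the log2 scale and was not called (edgeR SE 0.51). ENG, ID3, TIAM1, FBN1, CREB3L1, ABCB1 and EPHB2 were called in all 4 DESeq2 fits that left out 1 KO library, and DNAJA4 and FAM81A in none. TMEM47 was not called without CMM2 KO 2 (0.344), and SCD was called only without CMM12 KO 1. LOXL2, CDH13, COL5A2 and TGFB3 were called in 2 of the 4 fits, and not without CMM12 KO 1 (adjusted p 0.0636 to 0.0979) or CMM2 KO 2 (0.136 to 0.310). The 6 genes chosen after their values were seen are not in that count.

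**Figure D5:**
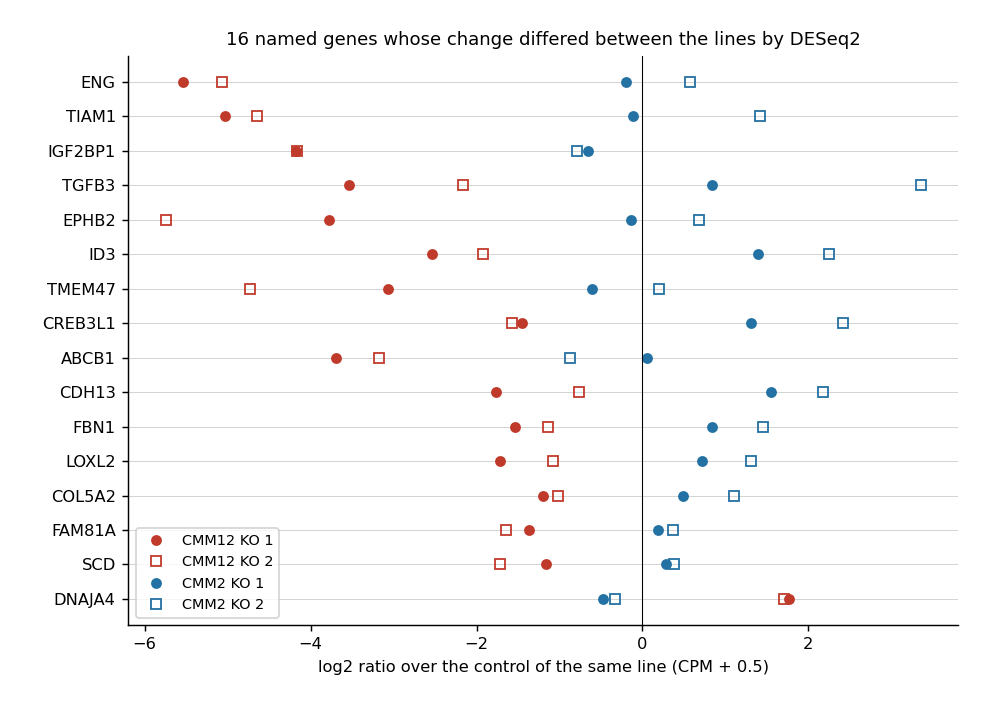
Log2 ratio to the control of the same line for 16 named genes whose KO effect differed between CMM12 (red) and CMM2 (blue) by DESeq2, with KO 1 filled and KO 2 open. For ID3, FBN1, CREB3L1 and COL5A2 the CMM12 points lie below 0 and the CMM2 points above it.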

How the data were processed

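Total RNA of 6 canine cell-line libraries was sequenced with a NEBNext Ultra kit, per the labels' protocols. The submitters' processing notes list CanFam3.1 as build, with RSEM 1.3.3 and STAR 2.7.3a. The authors deposited RSEM expected counts per gene, per the file headers, and TPM values beside them. Nothing states a scaling of the counts. Rounding these to integers altered 3.22% to 3.63% of a library's values. Genes without a symbol (7.89% to 8.85% of counts) were kept.

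edgeR 4.0.16 in R 4.3.3 (glmQLFit, TMM, filterByExpr, Benjamini-Hochberg at 0.05) was fitted to 4 group means, leaving 2 residual degrees of freedom. DESeq2 1.42.0, limma 3.58.1 on log2(TPM + 1) and the other alternatives were refitted over all genes. DESeq2 gave no adjusted p for 4185 genes. Code was tested on counts simulated from each gene's mean over all libraries. DESeq2 called 70 of 108 genes changed by 2 on the log2 scale and 70 of 92 changed by 3. It also called 27 of 12070 unchanged genes. For edgeR these were 58 of 108, 69 of 88 and 17 of 11710, so both tools missed changed genes and called some unchanged ones. Unchanged genes made up a larger share of each tool's calls in this simulation than the threshold of 0.05 aims at. The 43 DESeq2 calls may therefore hold more false ones than that threshold implies.

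Named genes were PDPN; genes with a symbol called by either tool; the 15 largest per direction in both KO lines and the 6 on opposite sides (mean of at least 5 CPM); the 6 smallest p per direction for the difference from CMM2; up to 4 per list; and podoplanin's partners. IGF2BP2, COL6A1, COL6A3, TGFB2, TGFBR1, ID1, FST, ROR2, WNT7B, FADS1, SPRY4, SPRED1, TIMP1, JAG1 and JAG2 were chosen after their values were seen. Members, the 40 lists and tests were chosen with earlier results of these data known. The labels do not say whether a KO number means the same thing in both lines. Differences of KO 2 from KO 1 correlated at 0.06 between lines over 9044 genes, which cannot decide it. The main fit left KO number out. Sequences were not analysed here, and a few genes and 1 list are not reported here.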

Additional observations from a re-analysis of the deposited data

Results flagged for a closer look

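For 16 named genes, of the 23 called, the KO effect differed between CMM12 and CMM2 by DESeq2. The difference of the log2 effects, CMM12 minus CMM2, was −8.15 for ENG, −7.13 for TIAM1, −6.02 for IGF2BP1, −5.84 for TGFB3 and −4.96 for EPHB2. It was −4.17 for ID3, −3.71 for TMEM47, −3.52 for CREB3L1 and −3.17 for ABCB1. CDH13 stood at −3.12, FBN1 at −2.50, LOXL2 at −2.42, COL5A2 at −1.93, FAM81A at −1.78, SCD at −1.75 and DNAJA4 at 2.19. edgeR called none of them (smallest adjusted p 0.451).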

How the results depend on the processing

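Of the 191 named genes 183 or more kept their direction under each alternative (183 of 187 by limma on log2(TPM + 0.1), 183 of 188 by edgeR without CMM12 KO 2), and no called gene reversed. edgeR called 0 genes higher and 1 lower in CMM12; DESeq2 called 19 and 24, edgeR without a filter 4 and 24, the bias-adjusted fit 0 and 4, limma on log2(TPM + 1) 0 lower, on log2(TPM + 0.1) 0 lower and without a filter 2 and 73, edgeR on the CMM12 libraries only 0 lower and DESeq2 on them 25 and 66. Without 1 KO library edgeR called 0 to 4 higher and 0 to 10 lower, and DESeq2 8, 10, 20 and 20 higher and 21, 36, 34 and 35 lower (without CMM12 KO 1, CMM12 KO 2, CMM2 KO 1 and CMM2 KO 2). For the difference from CMM2, where edgeR called 0, DESeq2 called 2 higher and 21 lower, edgeR without a filter 2 lower, edgeR without 1 KO library 0 to 1 lower, and DESeq2, in the same order, 2, 3, 38 and 6 higher and 14, 38, 78 and 15 lower. With KO number as a replicate block edgeR called 8 genes lower, 5 of them DESeq2 calls. Whether the numbers pair the libraries is not given in the labels. With 0.1 CPM added, 404 genes were at least 2-fold higher in both KO lines and 366 lower. With 0.5 CPM added the order was the reverse, at 256 and 310. With 2 CPM added, genes past 2-fold numbered 212 higher and 422 lower in KO 1, 381 and 352 in KO 2 and 94 and 198 in both. At a mean of at least 5 CPM they numbered 220 and 365, 324 and 301, and 119 and 145. Lists with a median beyond 0.5 in both KO lines, marker lists included, numbered 2 higher and 2 lower. On the TPM scale 0 were higher, and relative to the chromosome median 1 was higher and 1 lower. Without 1 KO library there were 4 higher and 4 to 6 lower. Those left relative to the chromosome median were marker lists, of Schwann cells and glia (1 measured gene) and of epithelium (4). The collagen and immediate early lists were not among them. The causes were not tested. Alternatives relative to chromosome or neighbours and DESeq2 without a library were added after seeing the data. The lone control cannot be left out, and it stands in every fold.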
